A study of Mus musculus with 60 samples.

Results

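Oligodendrocytes are the cells that wrap axons in myelin in the central nervous system. Expression of 8 genes that mark their precursors and the first steps of their differentiation was followed here: Pdgfra, Cspg4, Olig1, Olig2, Sox10, Gpr17, Bcas1 and Enpp6. The genes were taken by name, and all 8 were found among the 39756 genes of a table of TPM values (each library's expression, corrected for transcript length and scaled to a total of 1000000) from mouse cortical cultures, and among the 38660 gene symbols of a table of long reads from mouse hippocampus.

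The culture table held 48 libraries in 13 groups. It comprised 2 libraries labelled E15 and 46 libraries of primary cells labelled cortical neurons, collected after 3, 5 or 10 days in vitro (DIV3, DIV5, DIV10). Per the labels these cells were prepared from the cerebral cortex of wild-type E18 mouse embryos. The text of the study instead calls the mouse cultures E15 and treats E15 as the start of culture. At 2 days in vitro the cultures received a scrambled siRNA (SC) or a paxillin siRNA (PXN), each with or without brain-derived neurotrophic factor (BDNF) at 20 ng/ml. At DIV3 there were 3 SC, 5 PXN, 3 SC BDNF and 4 PXN BDNF libraries. At DIV5 these numbers were 4, 6, 4 and 5, and at DIV10 they were 3, 4, 3 and 2. Each library carries a number in its title, called its culture number here. The labels do not say what this number marks, so that equal numbers need not mean the same culture. Cultures 10 and 11 were present only with paxillin siRNA. Paxillin, encoded by Pxn, is an adaptor protein of cell adhesions. The hippocampus table held 12 Nanopore libraries of bulk tissue, 2 for each of 2 genotypes at postnatal day 10, 15 and 21 (P10, P15, P21). Mice labelled PXN KO, PXN-S119A KI carried Nestin-CreERT2 with 1 floxed paxillin allele and 1 allele encoding paxillin S119A, in which alanine replaces a phosphorylated serine (called S119A below). The Nestin promoter drives the inducible recombinase in neural stem and progenitor cells and in part of the cells derived from them, and tamoxifen was given from P5, so cells outside that reach kept their alleles. The mice labelled WT (called control below) were, per the methods of the study, littermates that received the same tamoxifen. The appendix of the study gives them the same floxed and S119A paxillin alleles, without Nestin-CreERT2. The labels do not say whether each library came from its own animal or preparation, so that p-values measure the spread between these libraries, which may be technical.

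Oligodendrocyte precursors divide and migrate while platelet-derived growth factor signals through the receptor encoded by Pdgfra, and they carry the proteoglycan NG2, encoded by Cspg4. Olig1 and Olig2 are basic helix-loop-helix transcription factors and Sox10 is an HMG-box factor. Olig2 is required for specification of the lineage, and Sox10 activates myelin genes. When a precursor commits to differentiate, Pdgfra and Cspg4 go down, the receptor Gpr17 is switched on for a time, and Bcas1 and Enpp6 come up in the newly formed cell before the bulk of myelin proteins. Several of these genes are not private to the lineage: fibroblasts also carry Pdgfra, mural cells of blood vessels carry Cspg4, and dividing progenitors and some astrocytes carry Olig1 and Olig2. In bulk RNA, fewer cells of a type and less RNA per cell cannot be told apart.

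Since the cultures were labelled as neurons, the marker lists of other cell types were read first. The summed TPM of 8 neuronal markers was 1763 to 3338 at DIV3, 1212 to 2821 at DIV5 and 448 to 2695 at DIV10. Markers of astrocytes (9 genes) summed to 299 to 1076, 1149 to 8688 and 1121 to 9100 TPM on the same days, and no astrocyte, mural, fibroblast or microglial marker on the lists was at 0 in all libraries. The targeted gene separated the siRNA groups at DIV5 without BDNF only. There Pxn was at 12.4 to 19.9 TPM in the SC libraries and 8.43 to 9.83 TPM in the PXN libraries, and with BDNF at 10.04 to 18.99 TPM and 8.74 to 13.8 TPM. At DIV3 it was at 7.98 to 12.3 TPM (SC, n = 6) and 7.79 to 11.8 TPM (PXN, n = 9), and at DIV10 at 8.99 to 19.9 TPM (SC, n = 6) and 10.9 to 18.8 TPM (PXN, n = 6), so that the groups overlapped on both days. The groups are therefore given below as libraries labelled with paxillin siRNA. In the hippocampus, Pxn was at 24 to 127 reads in the control libraries and 30 to 68 reads in the S119A libraries, which also overlapped.

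The first comparison asked how the 8 genes changed over time in culture. TPM is corrected for transcript length, so that levels of different genes can be set side by side. At E15 the factors Olig1 and Olig2 were the highest of the 8: Olig1 was at 303 and 128 TPM in the 2 libraries and Olig2 at 171 and 96.4 TPM. The receptor genes Gpr17 and Pdgfra were at 43.7 and 48.6 TPM and at 20.0 and 51.2 TPM. Sox10 was at 14.3 and 10.2 TPM and the proteoglycan gene Cspg4 at 6.93 and 10.9 TPM, so that these overlapped. The genes of the newly formed oligodendrocyte were near or at 0, with Bcas1 at 0.475 and 0.648 TPM and Enpp6 at 0 and 0.0126 TPM. E15 was compared with the 3 SC libraries without BDNF at DIV3. From E15 to DIV3 all 8 genes had a higher mean on the log2(TPM + 1) scale, but none passed the test (limma, adjusted p under 0.05), against 8.11% of the 14250 genes tested, and 2 had an unadjusted p under 0.05. Those were Olig1, which differed by 2.16 ± 0.79 (SE; adjusted p = 0.082), and Olig2, by 1.60 ± 0.73 (adjusted p = 0.17). The summed TPM of fibroblast markers was 56.9 and 529 at E15 and 30.6 to 292 over all 15 libraries of DIV3, and that of mural markers 154 and 391 against 27.3 to 62.7. From DIV3 to DIV5, 3 of 5 tested fibroblast markers fell (median -2.27), and of 5 tested mural markers 3 fell and 2 rose (median -1.33). Over all 14250 genes, 1930 fell and 3641 rose in that step. The part of those cells in the Pdgfra and Cspg4 levels was not tested.

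**Figure D1:**
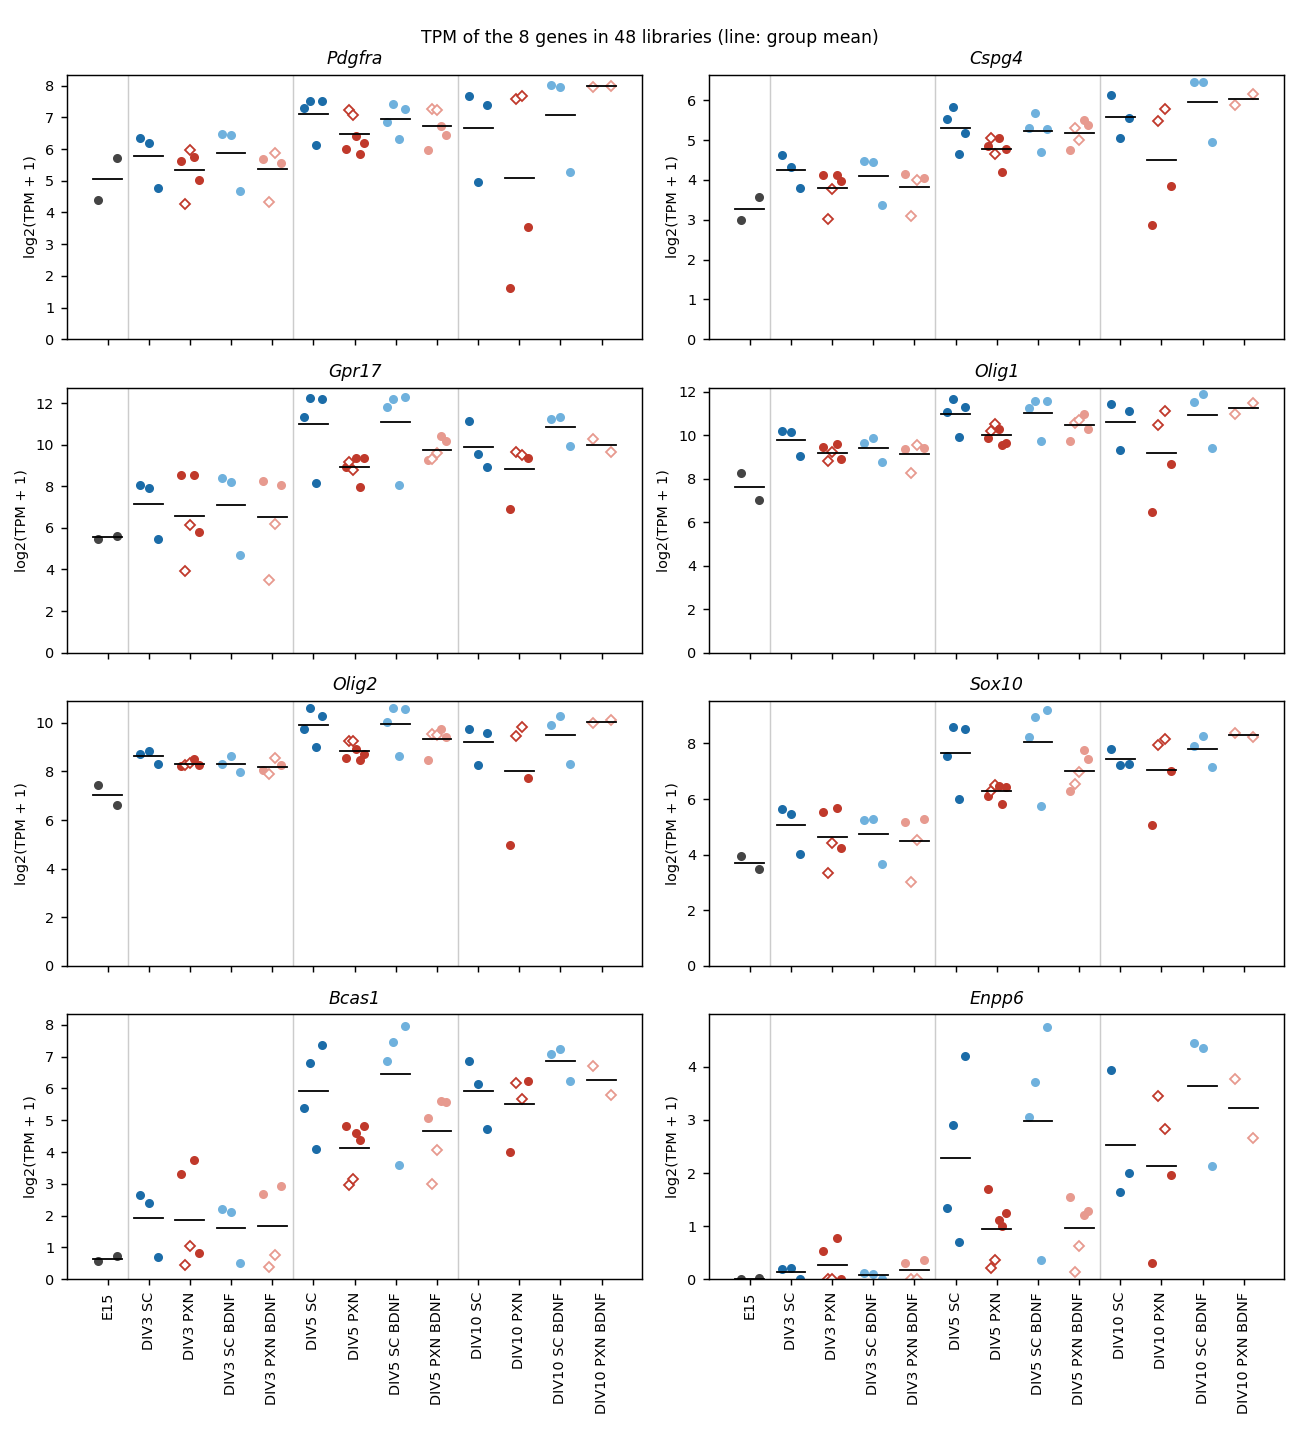
Level of each of the 8 genes as log2(TPM + 1) (y axis) in each library (points) of the 13 culture groups (x axis), with the group mean as a line and cultures 10 and 11 as open diamonds. All 8 genes were higher on average at DIV5 than at DIV3, with a difference of 3.52 on the log2 scale for Bcas1.

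All 8 genes rose from DIV3 to DIV5, against 25.6% of all genes tested that rose. The comparison averaged the 4 combinations of siRNA and BDNF, with 15 libraries at DIV3 and 19 at DIV5. Bcas1, which encodes a protein of early myelinating oligodendrocytes, rose by 3.52 ± 0.41 on the log2(TPM + 1) scale (SE; limma, adjusted p = 1.3e-08). Its lowest, median and highest TPM were 0.304, 3.33 and 12.4 at DIV3, and 6.75, 27.3 and 246 at DIV5. The ranges overlapped in 4 DIV5 libraries, and the 3 lowest of these were from cultures 10 and 11 with paxillin siRNA. Gpr17, a receptor of the committed precursor, rose by 3.36 ± 0.50 (adjusted p = 1.5e-06), from a median of 239 TPM (10.3 to 372) to 659 TPM (247 to 5049). Sox10 rose by 2.51 ± 0.32 (adjusted p = 6.3e-08), and its ranges did not overlap: 7.14 to 50.1 TPM at DIV3 and 53.3 to 592 TPM at DIV5. Enpp6, a choline phosphodiesterase of newly formed oligodendrocytes, was under 1 TPM in all 15 libraries at DIV3 (0 to 0.722 TPM) and at 0.105 to 25.9 TPM at DIV5, a rise of 1.63 ± 0.33 (adjusted p = 0.00015).

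The differences of the genes of the dividing precursor were smaller on this scale, on which a difference depends on the level of a low gene. Pdgfra went from a median of 49.998 TPM (18.4 to 88.1) to 115 TPM (56.6 to 182), a rise of 1.23 ± 0.40 (adjusted p = 0.013). Cspg4 went from 15.5 TPM (7.05 to 23.7) to 32.4 TPM (17.4 to 55.4), by 1.12 ± 0.20 (adjusted p = 3.3e-05). Olig1 rose by 1.23 ± 0.31 (adjusted p = 0.0014), from 675 TPM (308 to 1177) to 1457 TPM (738 to 3233). Olig2 rose by 1.16 ± 0.28 (adjusted p = 0.0012), from 312 TPM (238 to 455) to 692 TPM (358 to 1565). The medians of all 8 at DIV5 ran from Olig1, Olig2 and Gpr17 at the top, whose ranges overlapped, through Pdgfra, Sox10, Cspg4 and Bcas1, each of which overlapped its neighbour, to Enpp6 at 1.39 TPM. In the SC libraries without BDNF alone (3 at DIV3 and 4 at DIV5), 3 of the 8 genes passed the test.

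From DIV5 to DIV10 the means of 4 of the 8 genes were higher, and 1 passed the test. That was Enpp6, which rose by 1.09 ± 0.36 (limma, adjusted p = 0.0093), and 1 of 8 is below the 17.3% of all genes that rose. The median of Enpp6 went from 1.39 to 5.75 TPM (0.232 to 20.9 at DIV10, n = 12). With the SC libraries without BDNF alone it did not pass. Bcas1 had a median of 72.6 TPM at DIV10 (14.96 to 149), a difference of 0.84 ± 0.44 (adjusted p = 0.10). Differences of the other 6 lay between -0.33 (Olig2) and 0.40 (Sox10), and the median of all genes tested was -0.13. That median moved to 0.01 when each library was rescaled to a common centre, a shift that raises each of these differences by about as much. For Pdgfra, Cspg4, Olig1 and Olig2 the spread between libraries was wider at DIV10 than on both earlier days. The highest Pdgfra value was 128 times the lowest at DIV10 (2.04 to 260 TPM), against 4.77 times at DIV3 and 3.21 times at DIV5. For the other genes the spread was not wider than on both earlier days. The highest Bcas1 value was 9.99 times the lowest at DIV10, against 40.6 times at DIV3 and 36.4 times at DIV5. The lowest library at DIV10 was PXN culture 1 for all 8 genes, while the DIV10 medians were 196 TPM for Pdgfra, 2105 TPM for Olig1 and 818 TPM for Olig2.

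Across the 46 DIV libraries the levels of all pairs of the 8 genes correlated positively. As a description over libraries that share cultures and days, Pearson's r on log2(TPM + 1) was 0.97 between Olig1 and Olig2, 0.94 between Pdgfra and Olig1, 0.95 between Sox10 and Gpr17 and 0.95 between Sox10 and Bcas1. Cspg4 was at 0.91 with Olig1, 0.87 with Pdgfra, 0.88 with Sox10 and 0.84 with Gpr17. The value was lowest between Pdgfra and Bcas1, at 0.51. Among genes outside the 8, those most like Pdgfra were Shc4 (r = 0.95), Tmem100 (0.91) and Tril (0.91), and those most like Olig2 were Tril (0.92), Epn2 (0.91) and Gsx1 (0.91). Bcas1 was most like Plxnb3 (0.98), Bmp4 (0.97) and Itpr2 (0.96), and Enpp6 most like Slc44a1 (0.98), Fa2h (0.96) and S100b (0.96).

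Lists of other lineage genes were counted over the same steps, and 25.6% of all genes tested rose from DIV3 to DIV5. Of 15 other precursor genes, 9 rose from DIV3 to DIV5 and none fell (median 0.74, against 0.05 over all genes), among them Nkx2-2, a homeobox factor of the lineage, by 2.54 (adjusted p = 1.9e-06) and Neu4 by 2.28 (adjusted p = 6.8e-06). Of 13 tested genes of committed and newly formed oligodendrocytes, 12 rose, with Bmp4, a signalling ligand, by 3.28 (adjusted p = 2.1e-07) and Myrf, the transcription factor of myelin gene activation, by 2.82 (adjusted p = 6e-07). Of 13 tested genes of mature oligodendrocytes and myelin, 7 rose, with Cnp, an enzyme of the myelin membrane, by 2.72 (adjusted p = 4.2e-08). From DIV5 to DIV10, 12 of those 13 rose (median 2.98), with Mobp by 5.39 (adjusted p = 2.5e-11) and Mag by 4.33 (adjusted p = 1.8e-08), while 5 of 15 other precursor genes fell and none rose, with Vcan at -0.87 (adjusted p = 0.00024). Over all genes, 5503 of 14250 fell and 2469 rose in that step, so the share of precursor genes that fell was below that of all genes. Of the 18 tested ligands and signals, 9 rose and none fell from DIV3 to DIV5, and 7 rose and 4 fell from DIV5 to DIV10. In the latter step Erbb3, a neuregulin receptor, rose by 2.699 (adjusted p = 3e-15) and Shh fell by 1.40 (adjusted p = 5e-05). Of 8 tested inhibitors of differentiation, 4 rose in the first step and 3 fell in the second, with Hes5, a Notch target, at -2.08 (adjusted p = 1.2e-13). The 3 of 8 that fell are about the share of all genes that fell in that step. Other cell types moved on the same days: all 9 astrocyte markers rose from DIV3 to DIV5, all 5 tested microglial markers rose from DIV5 to DIV10, and all 8 markers of dividing cells fell from DIV5 to DIV10, from 179 to 588 TPM in sum to 12.2 to 259 TPM. The part of these cells in the levels of the 8 genes was not tested.

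The next comparison asked whether the 8 genes differed between libraries labelled with paxillin siRNA and those with scrambled siRNA. At DIV3 none of the 8 passed the test, and neither did any of the 14250 genes (limma; 0% called, 100 genes and none of the 8 at an unadjusted p under 0.05). At DIV5 the means of all 8 were lower with paxillin siRNA (median -1.02, against -0.09 over all genes), and 3 passed the test: Enpp6, Bcas1 and Sox10. The share of all genes that fell was 16.2%. Enpp6 fell by 1.68 ± 0.44 on the log2(TPM + 1) scale (SE; adjusted p = 0.007), with a lowest, median and highest TPM of 0.289, 6.86 and 25.9 in the 8 SC libraries and 0.105, 1.16 and 2.24 in the 11 PXN libraries, with and without BDNF. Bcas1 fell by 1.80 ± 0.54 (adjusted p = 0.017), with 11.1, 112 and 246 TPM in the SC and 6.75, 23.4 and 47.9 TPM in the PXN libraries. Sox10 fell by 1.21 ± 0.42 (adjusted p = 0.035), with 53.3, 331 and 592 TPM against 55.7, 88.4 and 214 TPM. Sox10 did not pass when genes were not filtered on low TPM (adjusted p = 0.067) or when libraries were rescaled (adjusted p = 0.058).

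The groups overlapped for all 3 of these genes, and the lowest SC library was one of culture 3 in each case. The same culture stood out for Gpr17. Without BDNF it was at 2586, 4907, 282 and 4694 TPM in SC cultures 1, 2, 3 and 4, and at 490, 656, 247, 659, 579 and 442 TPM in PXN cultures 1, 2, 3, 4, 10 and 11. SC cultures 1, 2 and 4 were each above every PXN library, and SC culture 3 lay within the PXN range. With BDNF, SC cultures 1 to 4 were at 3586, 4738, 264 and 5049 TPM, and PXN cultures 1, 2, 4, 10 and 11 at 610, 1356, 1148, 644 and 782 TPM, so that SC culture 3 was again the lowest. Gpr17 did not pass the test, with a difference of -1.70 ± 0.67 (adjusted p = 0.063). The remaining differences were -0.84 ± 0.37 for Olig2 (adjusted p = 0.10), -0.78 ± 0.40 for Olig1 (adjusted p = 0.16), -0.44 for Pdgfra (adjusted p = 0.58) and -0.29 for Cspg4 (adjusted p = 0.46).

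Libraries of 1 culture number could be set against each other in 13 pairs, each a PXN library and the SC library of the same number, day and BDNF treatment. All pairs came from cultures 1, 2, 3 and 4, which recur over days and BDNF treatment, so the pairs are not independent. Olig1 and Olig2 were lower with paxillin siRNA in 13 of 13 pairs, Pdgfra in 12, Cspg4 and Sox10 in 11, Gpr17 in 10, Bcas1 in 7 and Enpp6 in 6. At DIV5 (7 pairs) Gpr17 was lower in all, by 0.19 to 2.90 on the log2(TPM + 1) scale, and so were Sox10, Olig1, Olig2 and Pdgfra. At DIV3 (5 pairs) Bcas1 was higher with paxillin siRNA in all, by 0.13 to 1.33. Enpp6 was also higher in all, by 0.01 to 0.58, but lay at only 0 to 0.722 TPM in the libraries of that day. Over all DIV3 libraries, cultures 10 and 11 included, the Bcas1 medians went the other way. They were 1.08 TPM in the PXN (n = 9) and 3.49 TPM in the SC libraries (n = 6). The change of the siRNA difference from DIV3 to DIV5 was -1.81 ± 0.82 for Bcas1 (unadjusted p = 0.033, adjusted p = 0.36) and -1.79 ± 0.67 for Enpp6 (unadjusted p = 0.011, adjusted p = 0.28), so neither day difference passed, nor did that of any of the 14250 genes (limma; 1756 at an unadjusted p under 0.05). The tests of day differences were added after the values had been seen. In the 4 pairs at DIV5 without BDNF, libraries of 1 number deviated together from their group means. A fit of all 46 DIV libraries with the culture number as a replicate block, cultures 10 and 11 included, called 4 of the 8 genes lower at DIV5 without BDNF (16.2% of all genes): Gpr17 at -1.83 ± 0.68 (adjusted p = 0.0499), Bcas1 at -1.36 ± 0.50 (adjusted p = 0.048), Sox10 at -1.35 ± 0.47 (adjusted p = 0.036) and Olig2 at -1.33 ± 0.45 (adjusted p = 0.031). Without the block none of the 8 passed in that comparison (6.18% of all genes did).

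**Figure D2:**
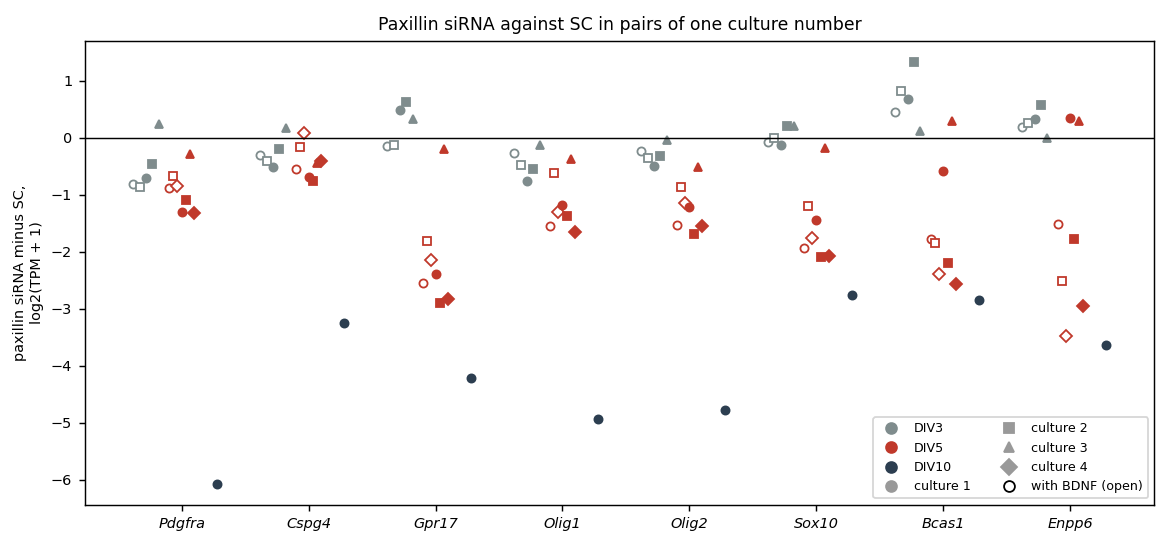
Difference in log2(TPM + 1) between the paxillin siRNA and the scrambled siRNA library (y axis) for each of the 8 genes (x axis) in 13 pairs of the same culture number, day and BDNF treatment; colour gives the day, the marker gives the culture and open markers are pairs with BDNF. At DIV5 the Gpr17 differences run from -2.90 to -0.19, and the single DIV10 pair lies lowest for each gene, at -6.07 for Pdgfra.

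Cultures 10 and 11, which had no scrambled siRNA partner, weighed on these results. Without them the DIV5 differences were -1.61 ± 0.71 for Gpr17, -1.33 ± 0.51 for Enpp6, -1.16 ± 0.45 for Sox10 and -1.15 ± 0.57 for Bcas1, and none of the 8 genes passed, against 20.7% of all genes; the smallest adjusted p was 0.0502, of Olig2. With the culture number as a replicate block, 6 of the 8 passed over all libraries (41.7% of all genes) and 8 without cultures 10 and 11 (40.1% of all genes). Libraries of 1 number did not deviate together in every DIV5 pair. Leaving out the SC culture 4 library at DIV5, with or without BDNF, left 1 of the 8 genes past the test. At DIV10 none of the 8 passed over all libraries (2.99% of all genes called), although 7 of the 8 means were lower with paxillin siRNA. There the PXN libraries without BDNF fell apart by culture. Pdgfra was at 2.04 and 10.6 TPM in PXN cultures 1 and 2 but at 189 and 204 TPM in PXN cultures 10 and 11, against 203, 30.3 and 166 TPM in SC cultures 1, 3 and 6. Olig2 was at 30.7 and 211 TPM in PXN cultures 1 and 2, at 707 and 902 TPM in cultures 10 and 11, and at 864, 306 and 771 TPM in the SC libraries. Without cultures 10 and 11, where only the comparison without BDNF remained, with 2 PXN libraries, 4 of the 8 genes fell (24.9% of all genes): Pdgfra at -4.11 ± 0.75 (adjusted p = 0.00036), Olig1 at -3.04 ± 0.71 (adjusted p = 0.0023), Olig2 at -2.85 ± 0.63 (adjusted p = 0.0016) and Cspg4 at -2.22 ± 0.43 (adjusted p = 0.00051). The siRNA difference changed from DIV5 to DIV10 by -0.22 (Cspg4) to 1.31 (Bcas1), and none of the 8 changes passed the test, while 2303 of the 14250 genes did.

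Other genes of the lineage were counted by list for paxillin siRNA at DIV5 as well. Over all 14250 genes, 2315 fell (16.2%) and 695 rose. Of 13 tested genes of committed and newly formed oligodendrocytes 10 fell and 1 rose (median -1.06), with Bmp4 at -1.99 (adjusted p = 0.014), Myrf at -1.82 (adjusted p = 0.014) and Rras2, the gene that rose, at 0.40 (adjusted p = 0.016). Of 15 other precursor genes 6 fell (median -0.44), with Nkx2-2 at -1.67 (adjusted p = 0.019), Neu4 at -1.59 (adjusted p = 0.020) and Lhfpl3 at -0.51 (adjusted p = 0.043). Of 13 tested mature genes 1 fell, Cnp, at -1.45 (adjusted p = 0.018). Of 18 ligands and signals 6 fell, with Smo, a component of Hedgehog signalling, at -0.70 (limma, adjusted p = 0.0006), and of 8 inhibitors of differentiation 1 fell, Sox9, at -0.73 (adjusted p = 0.014). For the mature genes and the inhibitors the share that fell was below that of all genes. Glial markers moved alongside: 3 of 9 astrocyte markers fell, with a summed level of 1407 to 8688 TPM in the SC and 1149 to 2146 TPM in the PXN libraries, and 4 of 7 markers of radial glia and progenitors fell, with 1845 to 4251 TPM against 1175 to 2947 TPM. Neuronal markers summed to 1212 to 2382 TPM with scrambled and 1366 to 2821 TPM with paxillin siRNA, and 1 of 8 rose. Their part in the levels of the 8 genes was not tested.

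BDNF was compared with no BDNF, averaged over both siRNAs. None of the 8 genes passed at DIV3 (6.46% of all genes did), at DIV5 (1.68%) or at DIV10 (0.014%). At DIV3 the differences were -0.24 (Bcas1) to 0.07 (Pdgfra). At DIV5 all 8 means were higher with BDNF, by 0.06 (Pdgfra) to 0.55 ± 0.42 (Sox10; adjusted p = 0.55). At DIV10 all 8 were higher, with a median of 1.07 against 0.03 over all genes, and 4 had an unadjusted p under 0.05: Pdgfra at 1.64 ± 0.68, Olig1 at 1.19 ± 0.52, Olig2 at 1.17 ± 0.48 and Cspg4 at 0.96 ± 0.35 (adjusted p = 0.46 to 0.48). In pairs of 1 culture the difference at DIV10 was smaller. Pdgfra was higher with BDNF in 4 of 4 pairs, but by 0.30 to 0.38 only. The averaged difference also rests on PXN cultures 1 and 2, which had no BDNF library at DIV10. Without cultures 10 and 11 no PXN library with BDNF remained at DIV10, and the Pdgfra difference, of the SC libraries alone, was 0.40 ± 0.67. No interaction of siRNA and BDNF passed the test for any of the 8 genes on any day, nor for any other gene (limma; at an unadjusted p under 0.05 there were 162 genes at DIV3, 116 at DIV5 and 885 at DIV10, and none of the 8 genes was among them).

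The hippocampus was then compared across ages and genotypes. Values are CPM (reads of a gene per 1000000 reads), scaled between libraries by the trimmed mean of M-values (TMM), and they are not corrected for length, so that each gene is compared only with itself. The libraries held 3162777 to 5687908 reads, and the 8 genes 20 (Pdgfra, lowest) to 2229 (Olig1, highest) reads per library. Before any age effect, the libraries numbered 2 at P15 and at P21, of both genotypes, stood apart from those numbered 1. Olig1 was at 389 and 377 CPM in the number 1 libraries of P15 (control, S119A) and 142 and 140 in the number 2 libraries. At P21 it was at 421 and 330 against 154 and 130, while the 4 libraries of P10 lay between 308 and 332. Olig2 and Sox10 were lower in the number 2 library in 4 of 4 comparisons as well, and Cspg4 was higher in 4 of 4. As log2 ratios of reads over total reads, before TMM scaling, the number 2 libraries were at -1.83 to -1.24 for Olig2, -0.84 to -0.27 for Sox10 and 0.38 to 1.02 for Cspg4. Bcas1 was lower in 2 of 4, and so was Gpr17, which was lower in none of the 4 after TMM scaling.

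The 3 genes that were lower in all number 2 libraries have the most G and C in a short stretch of their transcripts and also the shortest transcripts of the 8. The highest G + C content in any 100 bases was 87% for Olig2 and 81% for Olig1 and Sox10, against 63% to 71% for the other 5 genes. Over the whole transcript the content was 59.2% for Cspg4, which was higher in 4 of 4, and 58.5% for Olig2. The transcript lengths were 2162 bases for Olig1, 2530 for Olig2 and 2713 for Sox10, next to 2916 for Bcas1 and 8121 for Cspg4. The richest 100 bases of coding sequence within 1 exon are shown for these 3 and, for contrast, for Pdgfra and Enpp6, from the GRCm38 genome, with G and C in capitals. They lie at chr16:91270340-91270439 on the plus strand in the only exon of Olig1, at chr16:91227004-91227103 on the plus strand in exon 2 of 2 of Olig2, at chr15:79163573-79163672 on the minus strand in exon 2 of 4 of Sox10, at chr5:75166635-75166734 on the plus strand in exon 4 of 23 of Pdgfra and at chr8:47093051-47093150 on the plus strand in exon 8 of 8 of Enpp6. Their G + C content is 81%, 87%, 81%, 63% and 65%.
Olig1: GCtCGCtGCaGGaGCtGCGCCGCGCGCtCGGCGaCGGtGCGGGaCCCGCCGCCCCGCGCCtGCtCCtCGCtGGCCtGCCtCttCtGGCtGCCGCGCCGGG
Olig2: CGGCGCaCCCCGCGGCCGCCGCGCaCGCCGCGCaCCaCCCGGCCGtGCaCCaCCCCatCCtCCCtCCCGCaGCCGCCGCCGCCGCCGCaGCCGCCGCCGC
Sox10: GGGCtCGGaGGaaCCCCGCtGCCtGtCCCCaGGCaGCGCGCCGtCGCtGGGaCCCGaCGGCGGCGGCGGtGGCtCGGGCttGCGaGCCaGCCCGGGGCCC
Pdgfra: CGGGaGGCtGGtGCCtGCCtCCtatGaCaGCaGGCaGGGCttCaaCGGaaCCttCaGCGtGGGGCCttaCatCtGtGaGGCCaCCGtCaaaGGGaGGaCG
Enpp6: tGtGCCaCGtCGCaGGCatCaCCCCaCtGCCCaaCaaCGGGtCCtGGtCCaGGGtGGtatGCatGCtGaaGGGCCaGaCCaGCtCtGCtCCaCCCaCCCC
Pdgfra, with the lowest such content, was nevertheless lower in 3 of 4 number 2 libraries, with a lowest log2 ratio of -1.62. The parts of base composition and of length in the difference between libraries were not tested.

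**Figure D3:**
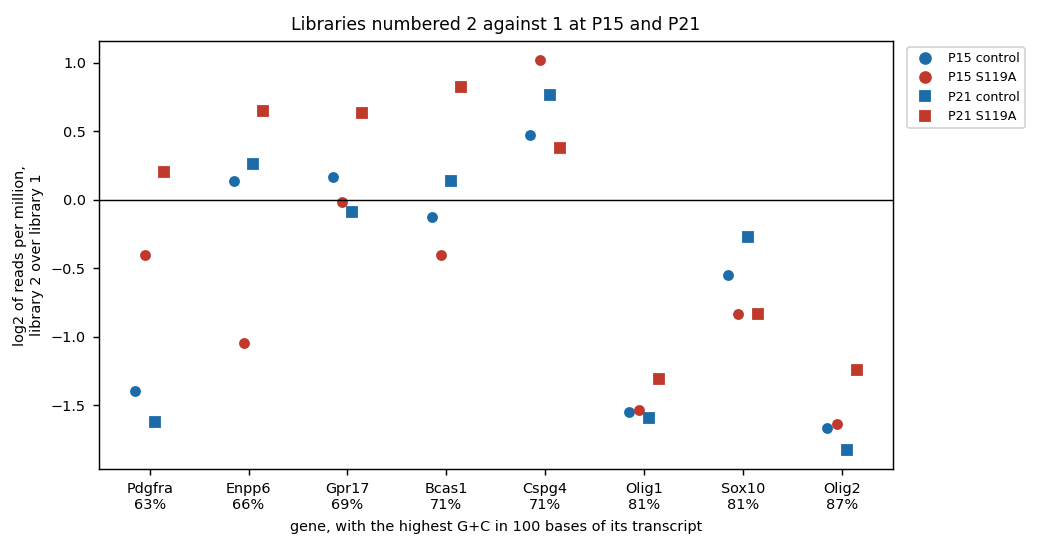
Log2 ratio of the number 2 to the number 1 library, in reads over total reads before TMM scaling (y axis), for the 8 genes (x axis, ordered by the highest G + C content in 100 bases of the transcript) at P15 and P21 in both genotypes. Olig1, Olig2 and Sox10, at 81% to 87%, lie below 0 in all 4 comparisons, with Olig1 between -1.59 and -1.31.

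The genes of the newly formed oligodendrocyte rose with age in the hippocampus. From P10 to P15, 3 of the 8 genes rose and none fell, against 1.56% of the 13557 genes tested that rose (edgeR quasi-likelihood test). Enpp6 rose by 1.66 ± 0.26 on the log2 scale (SE; adjusted p = 0.021), Bcas1 by 1.34 ± 0.22 (adjusted p = 0.025) and Gpr17 by 1.12 ± 0.17 (adjusted p = 0.017). In the order control 1, control 2, S119A 1 and S119A 2, Enpp6 was at 6.23, 7.36, 4.64 and 4.04 CPM at P10, at 15.02, 17.8, 23.8 and 12.4 at P15 and at 20.9, 27.6, 21.3 and 32.6 at P21. Bcas1 was at 19.6, 28.9, 21.7 and 25.7 at P10, at 63.2, 62.2, 64.4 and 52.7 at P15 and at 67.98, 82.6, 48.9 and 84.6 at P21. For both genes the P10 libraries lay below all later ones, and P15 and P21 overlapped. Gpr17 was at 54.4, 66.6, 61.9 and 61.9 at P10, at 122, 146, 128 and 137 at P15 and at 95.8, 99.4, 88.4 and 134 at P21. Its P10 libraries also lay below all later ones, and the P15 and P21 ranges overlapped. From P10 to P21 the same 3 genes rose (6.22% of all genes), Enpp6 by 2.23 ± 0.27 (adjusted p = 0.0027), Bcas1 by 1.56 ± 0.22 (adjusted p = 0.0055) and Gpr17 by 0.77 ± 0.17 (adjusted p = 0.025). From P15 to P21 none of the 8 passed, and 1 of the 13557 genes tested did (0.00738%).

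**Figure D4:**
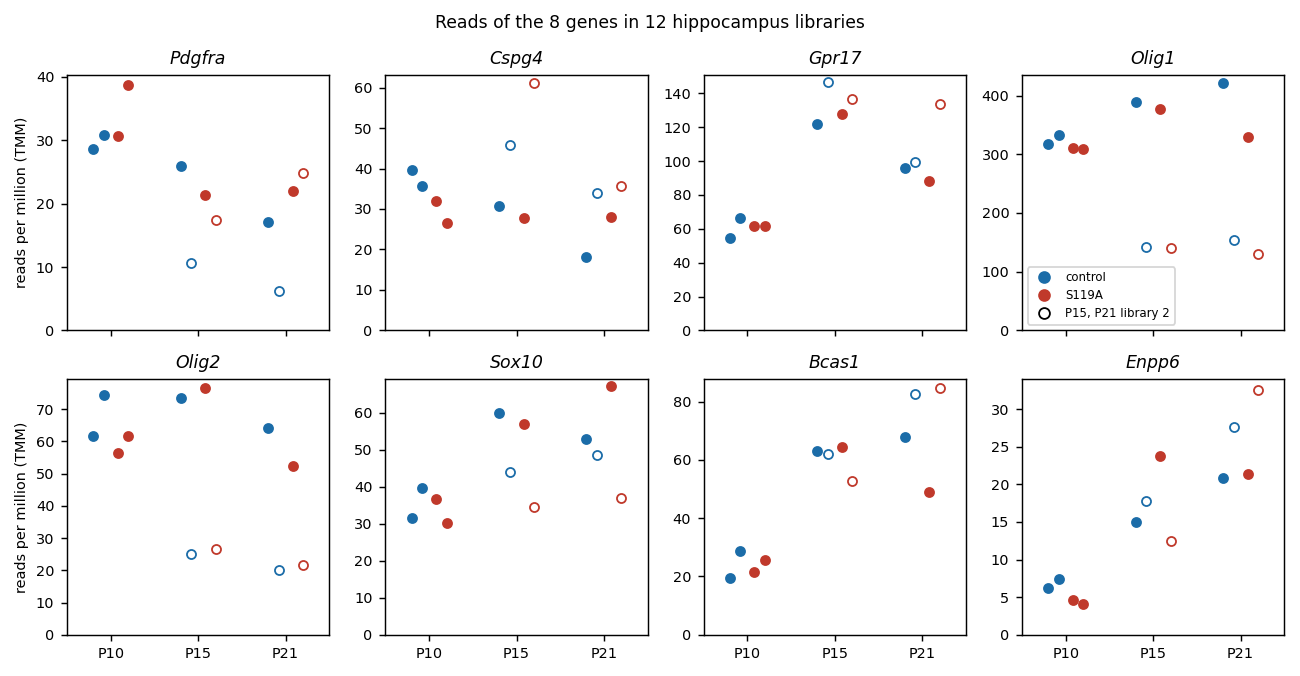
TMM-scaled CPM (y axis) of the 8 genes in each of 12 hippocampus libraries at P10, P15 and P21 (x axis), control in blue and S119A in red, with the number 2 libraries of P15 and P21 as open markers. Enpp6, Bcas1 and Gpr17 are lower at P10 than at any later library, and for Olig1 and Olig2 the open markers lie below every other point.

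The precursor genes did not pass with all libraries. Pdgfra was at 28.6, 30.9, 30.7 and 38.7 CPM at P10, at 26.0, 10.6, 21.4 and 17.5 at P15 and at 17.1, 6.14, 22.04 and 24.9 at P21, in the same order of libraries. Every later library was below every P10 library, and the difference from P10 to P21 was -0.95 (adjusted p = 0.14). The 4 number 2 libraries of P15 and P21 were then left out, which leaves 1 library per genotype at those ages. That fit used terms for age and genotype in place of a mean for each genotype at each age. Its results therefore differ from those above in the model as well as in the libraries. From P10 to P15, 5 genes then rose (9.27% of all genes), Sox10 by 0.77 ± 0.14 (adjusted p = 0.0011) and Olig1 by 0.28 ± 0.09 (adjusted p = 0.045) in addition to the 3 above. From P10 to P21, 7 of the 8 passed (35.2% of all genes): Pdgfra fell by 0.70 ± 0.17 (adjusted p = 0.0052) and Cspg4 by 0.52 ± 0.19 (adjusted p = 0.048), while Sox10 rose by 0.82 ± 0.14 (adjusted p = 0.0003), Olig1 by 0.26 ± 0.09 (adjusted p = 0.037), Gpr17 by 0.62 ± 0.11 (adjusted p = 0.00034), Bcas1 by 1.31 ± 0.16 (adjusted p = 1.1e-05) and Enpp6 by 1.94 ± 0.24 (adjusted p = 1.2e-05). Olig2 differed by -0.10 (adjusted p = 0.56). From P15 to P21 none of the 8 passed in those libraries (3.19% of all genes). The P10 to P15 calls rest on few libraries: without either P10 control library, either P10 S119A library or P15 control library 2 none of the 3 genes passed, and without P15 S119A library 2 only 1 did.

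The genotype made no difference that passed the test for any of the 8 genes, or for any of the 13557 genes (edgeR; 0% called, 121 genes and none of the 8 at an unadjusted p under 0.05). The differences of S119A from control, averaged over the 3 ages, were between -0.14 (Olig1) and 0.07 (Gpr17) for 7 of the genes and 0.43 ± 0.30 for Pdgfra. Without the late number 2 libraries the Pdgfra difference was 0.14 ± 0.14. No interaction of genotype and age passed for any of the 8. With 2 libraries per group, differences of the size of these standard errors were not detectable, and larger ones could be missed too. In simulated counts compared between P10 and P21, the same test found 4% of 50 genes changed by 1 on the log2 scale. It found 44% of 50 genes changed by 2.

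Myelin genes changed with age in the hippocampus as well. Over all 13557 genes tested, 211 rose and 104 fell from P10 to P15, and 843 rose and 606 fell from P10 to P21. Of 15 mature genes 12 rose from P10 to P15 (median 3.14) and 14 from P10 to P21 (median 5.27), with Mog, a protein of the outer myelin surface, by 6.60 (adjusted p = 0.00095) and Mal by 7.28 (adjusted p = 0.00084) over the longer span. Of 14 tested genes of committed and newly formed oligodendrocytes 3 and 5 rose and none fell, with Ugt8a, an enzyme of galactolipid synthesis, by 4.23 (adjusted p = 0.0011) from P10 to P21. Of 15 other precursor genes 1 rose in each span, Neu4 by 1.68 (edgeR, adjusted p = 0.016) and 1.56 (adjusted p = 0.0073), and from P10 to P21 2 fell, Cacng4 at -1.36 (adjusted p = 0.0065) and Ptprz1 at -0.88 (adjusted p = 0.028). The 1 of 15 that rose from P10 to P21 is about the share of all genes that rose in that span (6.22%). Among 17 tested ligands and signals Erbb3 rose by 4.77 (adjusted p = 0.00068) and Erbb4 by 1.05 (adjusted p = 0.019) from P10 to P21, and among 9 inhibitors of differentiation Gpr37 rose by 1.43 (adjusted p = 0.009). Of 7 fibroblast markers 3 fell from P10 to P21, with a sum of 194 to 391 CPM at P10 and 71.9 to 216 at P21, and 4 of 7 markers of dividing cells fell; their part in the levels of Pdgfra was not tested. No list had a gene that passed between genotypes. Over the 12 hippocampus libraries, as a description without a test, the genes most like Enpp6 were Mobp, Gjc3 and Adamts4 (r = 0.97 each), those most like Bcas1 were Rasd1, Sirt2 and Krt73 (0.97 each), those most like Pdgfra were Wdr13 (0.98), Cald1 (0.96) and Lamb1 (0.94), and those most like Olig2 were Mzf1, Fyn and Ctnnb1 (0.99 each). Olig2 itself was at 19.9 to 26.5 CPM in the number 2 libraries of P15 and P21 and at 52.2 to 76.5 CPM in the rest. The part of this split between libraries in the r values was not tested.

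Long reads also assign reads to transcripts. Cspg4, Olig1, Olig2 and Sox10 had reads on 1 RefSeq transcript each. Enpp6 had 97.3% of its reads on NM_177304.4, Gpr17 91.7% on NM_001025381.2 and Pdgfra 85.4% on NM_011058.3. Bcas1 was spread over 3 main transcripts, and their shares shifted from P10 to P21. NM_029815.2 took 43.6% ± 7.12 of the Bcas1 reads at P10 (SD, n = 4 libraries; 39.3 to 54.2%) and 27.2% ± 5.31 at P21 (21.6 to 33.9%). XM_030252198.1, a predicted transcript, took 46.7% ± 7.02 (37.4 to 53.6%) and 32.2% ± 2.95 (28.99 to 34.8%). XM_006500387.2, also a predicted transcript, took 6.72% ± 2.83 (2.68 to 9.29%) at P10 and 21.6% ± 3.82 (17.8 to 26.5%) at P21. For each of the 3 the ages did not overlap, which gives p = 0.0286 in a two-sided exact permutation test, the smallest that 4 against 4 libraries allow (Benjamini-Hochberg adjusted p = 0.0286 over the 3). Shares of 1 gene are not independent of each other, the transcripts were assigned by the authors' software, and a library held 107 to 415 Bcas1 reads. Without the number 2 libraries of P21 the test could not reach the threshold. XM_017319330.1 held 6.16% of the Bcas1 reads, under the 10% needed for this test. Its mean share went from 1.66% at P10 to 10.1% at P21.

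**Figure D5:**
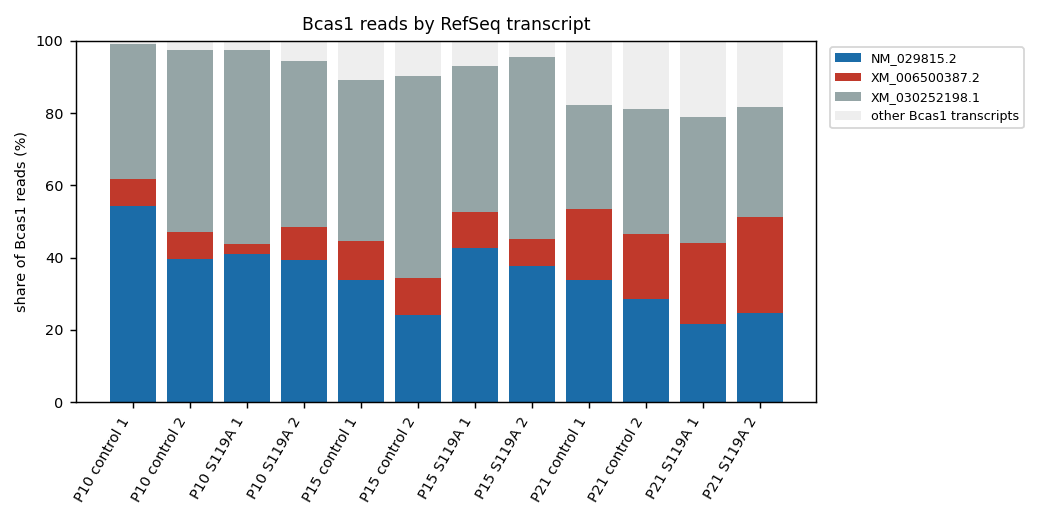
Share of Bcas1 reads in percent (y axis) assigned to each RefSeq transcript (colours) in each of the 12 hippocampus libraries (x axis). XM_006500387.2 takes 2.68 to 9.29% of the reads at P10 and 17.8 to 26.5% at P21.

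The 8 genes lie on 7 chromosomes, with Olig2 (chr16:91225550-91228677) and Olig1 (chr16:91269769-91271939) as close neighbours in GRCm38. The others are Pdgfra at chr5:75151322-75198206, Cspg4 at chr9:56865104-56899870, Sox10 at chr15:79154913-79164490, Bcas1 at chr2:170343973-170427911, Enpp6 at chr8:46939197-47096762 and Gpr17 on chromosome 18. RefSeq promoter sequences (250 bases before to 50 after the start) were at hand for 4 of them. On both strands the E-box CANNTG occurred 2 times in that of Pdgfra and not in those of Cspg4, Olig2 and Enpp6, while 72.3% of 32851 promoters hold at least 1. The E-box CAGCTG and the SOX motif ACAAAG occurred in none of the 4 (16.3% and 18.7% of all promoters).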

How the data were processed

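The culture libraries (Illumina, paired-end) were deposited by the authors as TPM per gene, made per the labels with STAR 2.7.10 and RSEM 1.3.3 on GRCm38. TPM keeps no read depth, so the depth behind a culture value is unknown. The hippocampus libraries (SMART-Seq cDNA with 8 PCR cycles, Nanopore) were deposited by the authors as estimated counts per RefSeq transcript, made with minimap2 and IsoQuant on mm10. Amplification and size selection can under-count a transcript. Counts were rounded and summed per gene for the 119252 of 122459 transcripts matched to RefSeq, which left out 1.79% of the reads.

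Culture values were tested with limma 3.58.1 (trend) on log2(TPM + 1), over all 13 groups, for the 14250 genes whose TPM averaged 1 or more. This scale understates changes of low genes such as Enpp6. Hippocampus counts were tested with the edgeR 4.0.16 quasi-likelihood test and TMM scaling for the 13557 genes kept by filterByExpr. P-values were Benjamini-Hochberg adjusted over all genes tested, with a threshold of 0.05, and all 8 genes passed both filters. Shares of transcripts holding at least 10% of a gene's reads were compared by exact permutation. The scripts were tested on simulated data.

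The 8 genes, the lists and the tests were chosen with earlier results of these data known. Of each lineage list, at most the 3 largest and the 2 most negative called changes were named, and as most alike the 3 genes with the highest Pearson r.

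Culture numbers in the titles may pair libraries. Deviations from the group means correlated over 0.1 in every pair for paxillin siRNA at DIV3 (0.277 to 0.806) and at DIV5 without BDNF (0.244 to 0.488) and for BDNF on each day, but not for paxillin siRNA at DIV5 with BDNF (0.079 in 1 pair), in the single pair at DIV10 (-0.435) or in every pair between days (lowest -0.021 and 0.042). Equal hippocampus numbers correlated at 0.752 to 0.841 among P15 and P21 groups and at -0.180 to 0.081 with P10. Alternatives were a replicate block, other filters, pseudocounts, scalings and tools (DESeq2 1.42.0), and leaving out cultures or libraries.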

Additional observations from a re-analysis of the deposited data

Results flagged for a closer look

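In 7 of 56 sets of 4 to 6 libraries, the lowest library lay far from the others, where chance gives about 1 in 20. No highest library did. In 3 of the 7 it was culture 3 with scrambled siRNA at DIV5: Pdgfra at 68.8 TPM without BDNF (the next library at 157 TPM), and, with BDNF, Olig1 at 838 TPM (next 2465 TPM) and Gpr17 at 264 TPM (next 3586 TPM). In 2 it was culture 10 at DIV3 with paxillin siRNA and BDNF, with Cspg4 at 7.55 TPM (next 15.1 TPM) and Olig1 at 308 TPM (next 659 TPM). The other 2 were of culture 1 with paxillin siRNA, with Olig2 at 359 TPM at DIV5 with BDNF (next 692 TPM) and Gpr17 at 119.3 TPM at DIV10 without BDNF (next 666 TPM). Within each library several of the 8 genes were low together, so these are not 7 independent events.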

How the results depend on the processing

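The number of the 8 genes past the threshold depended on which libraries entered, and no gene changed direction while called. Of 612 values, under an alternative, of genes that had passed, 540 stayed past the threshold and 72 did not. The share of all genes called under the same setting is in parentheses. From E15 to DIV3, 1 gene passed with only those groups in the fit (8.34%). From DIV3 to DIV5, 3 of 8 passed in the SC libraries without BDNF alone (9.47%). From DIV5 to DIV10, where 1 gene passed, 2 passed after rescaling (50.6%), 3 with the culture number as a replicate block (63%), 3 without cultures 10 and 11 (54.3%), also with the block (61.6%), and 0 in the SC libraries without BDNF alone (24.9%). For paxillin siRNA at DIV5, where 3 passed, 6 passed with only those groups fitted (22.6%), 6 with a replicate block (41.7%), 0 without cultures 10 and 11 (20.7%), 8 with the block added to that (40.1%), and 0 with BDNF alone (0.596%) or without BDNF alone (6.18%). At DIV10, where 0 passed, 1 passed with a replicate block (23%), 4 without cultures 10 and 11 (36.9%) and 8 with the block added to that (45.6%). Combining the block with leaving out those cultures was chosen after seeing the data. From P10 to P15, where 3 passed, 5 passed without the late number 2 libraries (17%) and 0 in either genotype alone (0%). From P10 to P21, where 3 passed, 5 passed with a term for the late number 2 libraries (27.8%), 7 without them (35.2%) and 1 in either genotype alone (1.93% and 2.31%). Of the 3 Bcas1 transcripts, 0 passed without the P21 number 2 libraries and 0 with sign flips within the replicate block, where the smallest possible p exceeds the threshold. Leaving out 1 library at a time gave 1 to 2 genes from DIV5 to DIV10, 1 to 5 for paxillin siRNA at DIV5, 0 to 3 from P10 to P15, 2 to 3 from P10 to P21 and 2 to 3 Bcas1 transcripts. Where the late number 2 libraries were left out, the model changed too, to terms for age and genotype. The causes of these changes were not tested. In the comparisons not named here the block changed no call. Depth limited Pdgfra and Enpp6 in the hippocampus most, at 20 to 211 and 22 to 160 reads per library.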
